A study of Mus musculus with 9 samples.

Results

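Mature miRNAs were compared between subcutaneous adipose tissue (SAT) and brown adipose tissue (BAT) of mice on a high-fat diet (HFD). The comparison covers the 343 of 1251 miRNAs in the small RNA sequencing table whose value lay above the table's lowest value in at least 3 of its 9 libraries, whichever depot they came from. Of the other miRNAs, 839 were at the lowest value in every library and 69 were above it in 1 or 2 libraries. The mice were male C57BL/6J, 5 to 6 weeks old at the start, and ate a diet with 45% of energy from fat, 20% from protein and 35% from carbohydrate for 11 weeks before a 4 h fast. SAT was the inguinal depot, BAT the interscapular depot, and the third depot, visceral fat (VAT), was epididymal. Each depot had 3 libraries. They are called here by their numbers, BAT 12, BAT 15 and BAT 20, SAT 14, SAT 19 and SAT 20, and VAT 14, VAT 17 and VAT 20, and values by library follow this order. All libraries are from HFD mice, so the comparison shows a depot difference on this diet and not an effect of the diet. The question behind it is how white and brown fat of obese mice differ in the RNAs that regulate their genes.

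A miRNA is a short RNA cut from a hairpin precursor, and either side of the hairpin, the 5p or the 3p arm, can be kept. It lowers the output of messenger RNAs that pair with its seed, the stretch of bases near its 5′ end, so miRNAs with a shared seed can share targets. BAT burns fuel for heat through its mitochondria, whereas white adipose tissue (WAT), to which SAT and VAT belong, mainly stores lipid, and several miRNAs are known to favour or hold back the brown programme in cultured precursors.

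The mature sequences of miRNAs on which the results turn are given first, 5′ to 3′, with the seed (bases 2 to 8) in capitals. RefSeq (GRCm38.p6) held a mature sequence for 288 of the 343 miRNAs. The first set was higher in SAT, and miR-196a-5p and miR-196b-5p carry one seed.
miR-196a-5p: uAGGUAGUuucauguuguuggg
miR-196b-5p: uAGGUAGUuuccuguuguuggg
miR-335-3p: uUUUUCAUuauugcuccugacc
miR-335-5p: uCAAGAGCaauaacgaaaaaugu
miR-223-3p: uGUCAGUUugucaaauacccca
miR-340-5p: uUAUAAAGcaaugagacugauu
miR-298-5p: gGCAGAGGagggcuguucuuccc
miR-708-5p: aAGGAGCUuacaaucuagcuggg
miR-224-5p: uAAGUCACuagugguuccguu
miR-152-5p: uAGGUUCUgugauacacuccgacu

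The second set was lower in SAT than in BAT. It holds both arms of miR-193b and of miR-129, which differed in the same direction, and miR-193b-3p and miR-455-3p are shown as brown fat miRNAs.
miR-378d: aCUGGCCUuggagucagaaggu
miR-193b-5p: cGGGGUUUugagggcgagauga
miR-193b-3p: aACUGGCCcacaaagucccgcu
miR-365-1-5p: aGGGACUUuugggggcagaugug
miR-455-3p: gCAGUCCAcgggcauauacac
miR-129-5p: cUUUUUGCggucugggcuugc
miR-129-2-3p: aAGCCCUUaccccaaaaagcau
miR-6240: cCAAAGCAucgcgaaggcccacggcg
miR-5130: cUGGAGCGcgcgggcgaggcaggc
miR-1199-5p: uCUGAGUCccggucgcgcgg
miR-2137: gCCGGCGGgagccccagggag

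The precursors lie in different settings of the GRCm38 genome. miR-196a-5p is encoded at chr11:96265187-96265208, outside other genes of that strand, and at chr15:102973365-102973386 in an intron of Hoxc5, and miR-196b-5p at chr6:52230129-52230150 within an exon annotated to Hoxa9. The arms of miR-335 share an intron of Mest, an imprinted gene (chr6:30741314-30741336 and chr6:30741354-30741375). Introns also hold miR-340-5p (Rnf130, chr11:50069720-50069741), miR-708-5p (Tenm4, chr7:96249450-96249472), miR-224-5p (Gabre, chrX:72261085-72261105), miR-152-5p (Copz2, chr11:96850400-96850423) and miR-455-3p (Col27a1, chr4:63256904-63256924). miR-223-3p overlaps an exon of a noncoding antisense transcript at chrX:96242884-96242905. No other gene is annotated on the strand of miR-378d (chr10:126710355-126710376) or of miR-298-5p (chr2:174267553-174267575), nor on that of the neighbours miR-193b and miR-365-1 on chromosome 16.

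Values are log2 normalized values as deposited, with a lowest value of 3.32 (the log2 of 10) and a highest of 18.67 in each library. At a given rank the libraries hold nearly one value, which is why several highly ranked miRNAs are equal in all 3 libraries of a depot. No read counts are in the table, so depth is unknown and only the spread between libraries is at hand as a measure of precision. Equal ranks make this spread 0, as for let-7c-5p in SAT. The labels do not say that the libraries of a depot are separate mice, so that p-values measure the spread between these libraries. The median SD of a miRNA over 3 libraries was 0.47 in BAT and 0.35 in SAT. Euclidean distances over the 343 miRNAs were 19.7 to 25.7 within BAT, 19.3 to 22.9 within SAT and 43.3 to 48.9 between the depots.

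Some libraries stood apart in markers of other cells, given as the share of the summed unlogged values above the lowest. The 4 brown fat markers held 19.5%, 18.8% and 6.96% in BAT 12, 15 and 20 and 1.53% to 1.60% in SAT, which is the direction of the labels. The 6 skeletal muscle markers held 0.0454%, 6.30% and 17.5% in BAT 12, 15 and 20 and 0.0379% to 0.0730% in SAT, and miR-133b-3p and miR-206-3p were at the lowest value in all SAT libraries and in BAT 12. The 7 epithelial markers held 0.955% in SAT 14 and 0.0108% to 0.0125% in SAT 19 and SAT 20. The 3 lymphocyte markers held 4.76% in SAT 20 and 0.579% and 0.670% in SAT 14 and SAT 19, against 0.869% to 1.19% in BAT. A single marker made up most of the muscle share (miR-133a-3p), the epithelial share of SAT 14 (miR-205-5p) and the lymphocyte share of SAT 20 (miR-150-5p). The muscle markers miR-1a-3p, miR-208b-3p and miR-499-5p were above the lowest value in too few libraries to be tested. miR-1a-3p was at the lowest value in BAT 12 and BAT 15 and at 7.38 in BAT 20. What these cells contribute to the differences that follow was not tested. In a whole tissue, fewer cells of a type and less miRNA per cell cannot be told apart.

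Of the 343 miRNAs, 139 differed between SAT and BAT at an adjusted p under 0.05 (limma's moderated test on 3 against 3 libraries, two-sided, Benjamini-Hochberg adjustment over all 343), which is 40.5%. Higher in SAT were 77 (22.4%) and lower 62 (18.1%), and for each of the 139 the 3 SAT libraries did not overlap the 3 BAT libraries. Depots without overlap were found for 180 miRNAs in all (52.5%). By the looser thresholds of the study, which set a minimum fold change and leave p unadjusted, 171 miRNAs differed (49.9%), 98 higher and 73 lower. The median log2 difference, SAT minus BAT, was 2.19 among the miRNAs called higher, -2.79 among those called lower and 0.26 among all 343.

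Detection divided the miRNAs further. In all 6 SAT and BAT libraries 184 miRNAs were above the lowest value, and 87 of these differed (51 higher in SAT, 36 lower), so 47.3% of the miRNAs seen everywhere were called. Another 15 miRNAs were above the lowest value in every SAT library and in no BAT library, and the reverse held for 16 miRNAs. These patterns leave one depot with no spread and so nearly fix the call. In neither depot did 17 miRNAs rise above the lowest value, and these entered the comparison through VAT. At the edge of the selection, the 38 miRNAs above the lowest value in exactly 3 libraries had a median value of 4.61 where they were seen, and the 31 left out with exactly 2 libraries had 4.09.

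**Figure D1:**
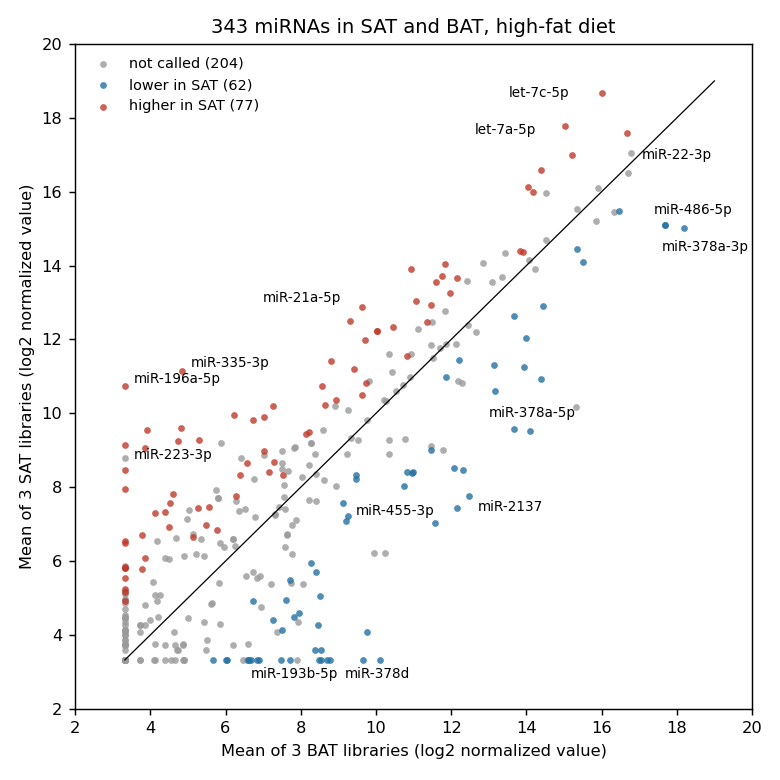
Each point is 1 of 343 miRNAs, with the mean log2 normalized value of 3 BAT libraries on the x axis and of 3 SAT libraries on the y axis, and the line marks equal values. Red points (77) were higher in SAT and blue points (62) lower at an adjusted p under 0.05. miRNAs of one depot only lie along the left and lower edges, where the other depot is at 3.32.

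The 10 largest positive differences were led by miR-196a-5p, which lies in the Hox clusters and is known for promoting browning in white fat precursors. It was at the lowest value in all 3 BAT libraries and at 10.93, 10.74 and 10.53 in SAT 14, 19 and 20, a log2 difference of 7.41 ± 0.13 (SE) from the lowest value (adjusted p = 6.69e-06). No fold is given where any library of a miRNA is at the lowest value, since the constant added before the logarithm then sets its size. Where a whole depot is at the lowest value, it adds no spread to the SE and p. Over the other settings tried, the difference of miR-196a-5p ranged from 5.12 to 10.72. miR-196b-5p, of the same seed, had 9.57, 9.35 and 8.86 in SAT, and in BAT it was at the lowest value in 2 libraries and at 7.55 in BAT 20. Its difference of 4.52 ± 1.31 passed the threshold narrowly (adjusted p = 0.0480). The call was lost when BAT 12, BAT 15, SAT 14, SAT 19 or SAT 20 was left out, with adjusted p from 0.117 to 0.133.

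Both arms of miR-335, a miRNA of the imprinted Mest gene that rises with obesity in fat, were among the 10. miR-335-3p had 11.51, 10.87 and 11.05 in SAT and 3.32, 5.92 and 5.28 in BAT, a log2 difference of 6.31 ± 0.74 (adjusted p = 0.00332, 4.97 to 7.61 over the other settings). miR-335-5p had 8.18, 8.50 and 8.68 in SAT and was at the lowest value in BAT (5.13 ± 0.15, adjusted p = 4.69e-05). The arms thus had the same order between depots, with the 3p arm at the higher value in SAT.

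miR-223-3p, a miRNA of neutrophils and macrophages, had 9.27, 9.19 and 9.0 in SAT and did not exceed the lowest value in BAT (5.83 ± 0.10, adjusted p = 6.69e-06). miR-224-5p had 7.66, 8.43 and 7.74 in SAT, with no BAT library above the lowest value (4.62 ± 0.23, adjusted p = 0.000226). For both, SAT and BAT did not come near each other. miR-340-5p had 9.08, 9.42 and 10.18 in SAT and rose above the lowest value only in BAT 20, at 5.09 (5.65 ± 0.62, adjusted p = 0.00280, 3.80 to 7.99 over the other settings). miR-298-5p, from the imprinted Gnas region, had 9.45, 8.17 and 9.57 in SAT and only BAT 20, at 4.91, was above the lowest value (5.21 ± 0.64, adjusted p = 0.00363, 3.37 to 7.57 over the other settings). The BAT library that held these miRNAs was the same one.

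miR-708-5p, in an intron of Tenm4, had 9.18, 9.97 and 9.65 in SAT and 6.19, 4.92 and 3.32 in BAT (4.79 ± 0.79, adjusted p = 0.00886, 3.48 to 6.11 over the other settings). miR-152-5p had 9.23, 9.45 and 9.14 in SAT and 5.80, 4.51 and 5.57 in BAT (15.8-fold, adjusted p = 0.00167). These BAT values varied more between libraries than the SAT values did.

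Among the 10 largest negative differences, 6 miRNAs were at the lowest value in every SAT library. miR-378d, a close relative of the metabolic regulator miR-378a, had 10.18, 10.02 and 10.15 in BAT (-6.80 ± 0.08, adjusted p = 3.39e-06). This was the smallest adjusted p of the comparison, with all SAT libraries at the lowest value and so without spread. miR-193b-5p had 10.23, 9.10 and 9.62 in BAT (-6.33 ± 0.31, adjusted p = 0.000215), and miR-365-1-5p from the same stretch of chromosome 16 had 9.18, 8.40 and 8.75 (-5.46 ± 0.22, adjusted p = 0.000128). miR-129-5p had 8.98, 8.53 and 8.60 in BAT (-5.38 ± 0.14, adjusted p = 3.82e-05). For these miRNAs every BAT library was far above the lowest value and no SAT library exceeded it.

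miR-122-5p, the most abundant miRNA of liver, had 8.98, 6.59 and 10.08 in BAT and was at the lowest value in SAT (-5.23 ± 0.94, adjusted p = 0.0115). Its BAT libraries differed widely, and the 3 liver markers together held 0.219%, 0.0458% and 0.299% of summed values in BAT 12, 15 and 20 and 0.0189% to 0.0283% in SAT. The part of liver RNA in this was not tested. miR-129-2-3p had 10.02, 9.45 and 9.78 in BAT, and in SAT only SAT 19, at 5.60, was above the lowest value (-5.67 ± 0.71, adjusted p = 0.00398, -7.97 to -3.90 over the other settings).

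The 4 others have high database numbers or sequences rich in G and C. miR-6240 had 8.09, 8.40 and 8.92 in BAT and was at the lowest value in SAT (adjusted p = 0.000201). miR-2137 had 12.50, 12.81 and 12.12 in BAT and 7.80, 7.54 and 7.94 in SAT, 26.3-fold lower (adjusted p = 0.000215). miR-5130 was lower in SAT by a log2 difference of -4.94 ± 0.31 (adjusted p = 0.000403, -7.46 to -2.97 over the other settings) and miR-1199-5p by -4.78 ± 0.32 (adjusted p = 0.000423, -7.30 to -2.82), and for both SAT 14 alone, at 4.13, was above the lowest value.

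**Figure D2:**
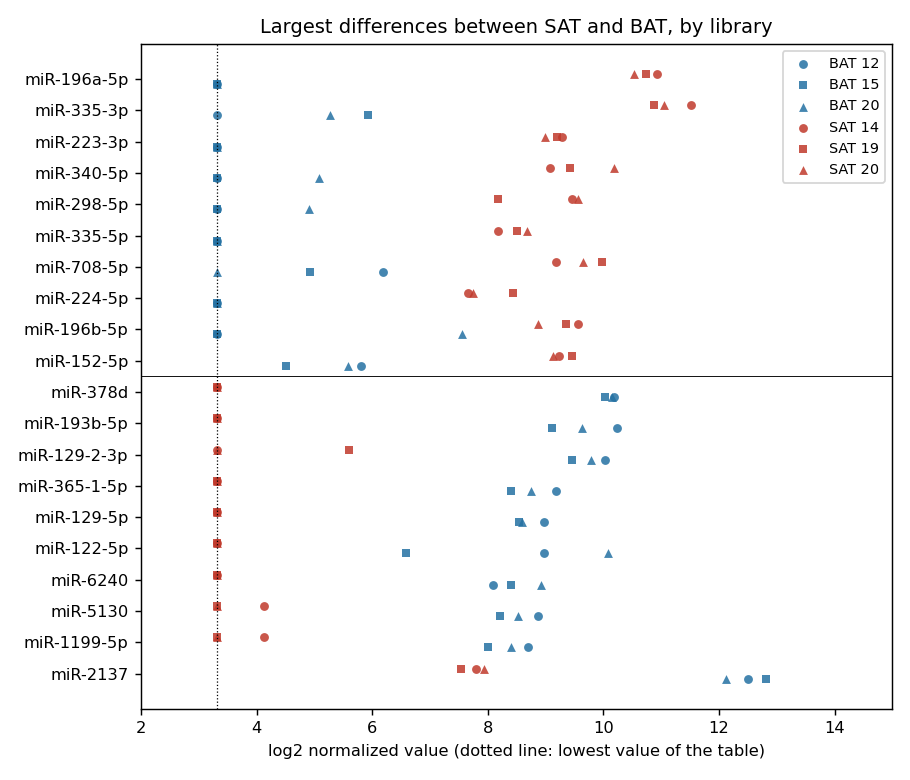
The 10 miRNAs with the largest positive (upper block) and negative (lower block) SAT minus BAT differences among those called without overlap, with the log2 normalized value of each library on the x axis. Symbols mark libraries, red SAT and blue BAT, and the dotted line is the lowest value, 3.32. In no row do the red and blue symbols cross, and the widest spread among them is that of miR-196b-5p in BAT, with BAT 20 at 7.55.

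The 8 miRNAs with the highest mean in each depot are given next. let-7c-5p and let-7a-5p, members of a family that restrains growth and insulin signalling, were at 18.67 and 17.77 in all SAT libraries. In BAT, let-7c-5p had 16.02, 15.87 and 16.18 (6.29-fold higher in SAT, adjusted p = 0.000128) and let-7a-5p 15.02, 14.75 and 15.30 (6.72-fold, adjusted p = 0.000371). Both were thus high in either depot and separated without overlap. Another 4 of the 8 highest in SAT were higher there than in BAT, namely miR-181a-5p (1.89-fold, adjusted p = 0.00971), miR-26a-5p (3.49-fold, adjusted p = 0.00502), miR-10b-5p (4.62-fold, adjusted p = 0.0115) and miR-143-3p (4.29-fold, adjusted p = 0.00184). The call of miR-181a-5p was lost in values relative to miR-191-5p (adjusted p = 0.172) and without the filter (adjusted p = 0.0584).

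In BAT the highest mean was that of miR-378a-3p, which is processed from an intron of the Pgc-1β gene and tied to mitochondrial metabolism. It had 18.67, 18.67 and 17.20 in BAT and 15.02 in every SAT library (8.94-fold lower in SAT, adjusted p = 0.00555). BAT 20, the library with the largest muscle marker share, was the lower one. miR-486-5p, a miRNA of red blood cells and muscle, was at 17.68 in every BAT library and at 15.23, 15.23 and 14.81 in SAT (6.00-fold lower in SAT, adjusted p = 0.000309). miR-3107-5p has identical values in every library, so that the pair cannot be told apart. miR-30d-5p had 16.51, 16.51 and 16.38 in BAT and 15.70, 15.47 and 15.30 in SAT (1.97-fold lower, adjusted p = 0.00484).

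Others at the top did not pass the test. miR-22-3p had 16.72, 17.20 and 17.20 in SAT and 16.72, 16.90 and 16.72 in BAT (difference 0.26 ± 0.17, adjusted p = 0.280). miR-125a-5p had a difference of -0.19 ± 0.24 (adjusted p = 0.568) and miR-99b-5p of -0.88 ± 0.32 (adjusted p = 0.0904). The 5 smallest differences among the 50 miRNAs with the highest means were those of miR-351-5p (-0.05 ± 0.28), miR-127-3p (0.11 ± 0.39), miR-191-5p (0.17 ± 0.23), let-7b-5p (0.18 ± 0.23) and miR-150-5p (0.18 ± 0.93). miR-150-5p, a lymphocyte miRNA, owed its small mean difference to a single library. It had 14.75, 14.52 and 14.31 in BAT, 13.56 and 13.84 in SAT 14 and SAT 19 and 16.72 in SAT 20, and without SAT 20 it was lower in SAT by 0.82 (adjusted p = 0.0441).

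The lists that follow are read against 22.4% of all tested miRNAs higher in SAT and 18.1% lower. Without the filter, when all 1251 miRNAs were tested, the 9 brown fat calls stayed at 9, while the higher calls fell to 3 for browning inhibitors, 8 for adipocyte differentiation, 2 for insulin and glucose, 5 for fibroblasts and smooth muscle, 1 each for the myeloid, Hox cluster and UPR lists and 0 for the endothelial and lymphocyte lists, and the calls of liver and gut fell to 0. With all 9 libraries in one fit the higher calls were 8 for insulin and glucose, 5 for myeloid and 3 for lymphocyte miRNAs.

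Of 15 tested miRNAs reported to mark or drive brown fat, 9 were lower in SAT and none was higher, with a median difference of -2.79 against 0.26 over all 343. The list was chosen with earlier results of these data known. It leaves out miR-196a-5p, named above as promoting browning, which was higher in SAT by a log2 difference of 7.41. miR-455-3p, which promotes brown adipocyte differentiation, had 12.45, 12.59 and 11.40 in BAT and 7.94, 7.92 and 6.48 in SAT (25.9-fold lower, adjusted p = 0.00352). miR-193b-3p, of a cluster that supports brown differentiation in culture, had 15.16, 14.41 and 13.56 in BAT and 10.79, 11.29 and 10.74 in SAT (10.9-fold lower, adjusted p = 0.00463). miR-378a-5p was 17.3-fold lower (adjusted p = 0.000602), miR-328-3p 5.86-fold (adjusted p = 0.000766) and miR-30c-5p 2.63-fold (adjusted p = 0.000403). The members in the list that did not pass include miR-365-3p (-1.29 ± 0.56, adjusted p = 0.135), the companion of miR-193b, miR-182-5p (-2.79 ± 1.23, adjusted p = 0.136) and miR-203-3p (0.52 ± 1.05, adjusted p = 0.728). With one library left out, 9 or 10 members were lower, and without BAT 15, 1 was higher.

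Browning inhibitors are miRNAs reported to hold back brown or beige fat. Of 13 tested, 7 were higher in SAT and none lower (median 0.45). miR-199a-5p had 10.05, 10.18 and 10.34 in SAT and 6.56, 7.97 and 7.27 in BAT (7.57-fold, adjusted p = 0.00463), let-7i-5p was 3.87-fold higher (adjusted p = 0.0371), miR-93-5p 3.69-fold (adjusted p = 0.00555) and miR-34a-5p 2.44-fold (adjusted p = 0.0467). Calls for miR-27a-3p (2.16-fold, adjusted p = 0.0467) and miR-27b-3p (1.36-fold, adjusted p = 0.0273) were of small size. The count fell to 3 without BAT 12 or SAT 19 and to 4 without any one of BAT 15, BAT 20, SAT 14 and SAT 20. Lower in SAT were 2 members without BAT 12 and 1 without SAT 20.

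miR-133a-3p and miR-133b-3p, which repress the brown regulator Prdm16 and are muscle miRNAs, went the other way. miR-133a-3p had 10.10, 17.20 and 18.67 in BAT 12, 15 and 20 and 9.85, 10.79 and 9.85 in SAT. BAT 12 thus lay among the SAT values, while the other BAT libraries were far above. The difference of -5.16 ± 2.44 did not pass the test (adjusted p = 0.154), and without BAT 12 it was -7.78 (adjusted p = 0.00352). All 4 tested muscle miRNAs, with miR-133b-3p (-4.59 ± 2.13), miR-206-3p (-3.25 ± 1.49) and miR-133a-5p (-3.15 ± 1.54), were called lower in SAT when BAT 12 was left out and none was called with all libraries.

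Of 21 tested miRNAs reported to act in adipocyte differentiation, 13 were higher in SAT and 1 lower (median 1.46). miR-21a-5p, which rises during adipogenesis and in inflamed fat, had 12.89, 12.65 and 13.09 in SAT and 9.97, 8.65 and 10.29 in BAT (9.44-fold, adjusted p = 0.00589). miR-26b-5p, of a family that favours adipogenesis, had 12.59, 12.50 and 12.40 in SAT and 9.65, 9.35 and 8.96 in BAT (9.05-fold, adjusted p = 0.000403). miR-130a-3p, which represses Pparg, was 6.13-fold higher (adjusted p = 0.00259), miR-148a-3p 3.88-fold (adjusted p = 0.00363) and miR-30a-5p 3.49-fold (adjusted p = 0.00332). miRNAs that favour and that restrain fat-cell formation were thus both among the higher ones, and the lower one was miR-30d-5p. Without BAT 20, 2 were lower, in this list and in the next.

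Of 12 tested miRNAs reported to act on insulin and glucose, 5 were higher in SAT and 1 lower (median 1.93). miR-103-3p, which impairs insulin sensitivity, was at 14.05 in every SAT library and at 12.07, 12.09 and 11.34 in BAT (4.65-fold, adjusted p = 0.00259). Its close relative miR-107-3p had 9.50, 9.23 and 9.21 in SAT and 11.21, 11.29 and 9.85 in BAT, the opposite order, but did not pass the test (-1.47 ± 0.44, adjusted p = 0.0534). miR-195a-5p was 8.51-fold higher (adjusted p = 0.0116). miR-320-3p, the member lower in SAT, had 11.18, 11.44 and 11.29 there and 13.32, 13.09 and 12.98 in BAT (3.55-fold lower, adjusted p = 0.000602).

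The next lists hold miRNAs of the cells between adipocytes. Of 10 miRNAs of fibroblasts and smooth muscle, 8 were higher and none lower (median 2.19), and 7 or 8 were with one library left out. miR-199a-3p had 12.37, 12.30 and 12.04 in SAT and 9.58, 10.10 and 10.41 in BAT (4.61-fold, adjusted p = 0.00298), and miR-199b-3p has the identical row. miR-145a-3p and miR-143-5p, from one cluster, were each higher by a log2 difference of 2.93 (SE 0.55 and 0.54, adjusted p = 0.0123 and 0.0121). The exceptions were miR-214-3p, with 10.43, 10.82 and 10.56 in SAT and 10.54, 10.53 and 10.56 in BAT (adjusted p = 0.726), and miR-145a-5p (0.89 ± 0.28, adjusted p = 0.0620).

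Endothelial miR-126-3p was 3.88-fold higher in SAT (adjusted p = 0.0138) and miR-126-5p 1.66-fold (adjusted p = 0.0418). Both calls were lost without SAT 14 or SAT 19, and 1 remained without BAT 15, BAT 20 or SAT 20. Of 9 myeloid miRNAs 3 were higher (miR-223-3p, miR-21a-5p and miR-146b-5p, the last 7.45-fold, adjusted p = 0.0103) and none lower, and miR-511-3p, a macrophage miRNA, was at the lowest value in all 6 libraries. Without SAT 19, 5 myeloid miRNAs were higher. Of 7 lymphocyte miRNAs, miR-181a-5p alone was called, and 2 were without BAT 20. miR-142-5p, of all blood lineages, had 7.87, 7.85 and 11.88 in SAT and 6.89, 4.66 and 6.10 in BAT (3.32 ± 1.36, adjusted p = 0.116), and SAT 20 again held the highest value. The 5 myeloid markers held 0.0395%, 0.0331% and 0.0725% of summed values in SAT and 0.00213% to 0.00623% in BAT, and the part of blood cells in these differences was not tested.

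None of 3 epithelial miRNAs was called, although the mean of miR-205-5p, a miRNA of skin and gland epithelium, was higher in SAT by 5.47 ± 2.53 (adjusted p = 0.150). It had 14.31 in SAT 14, 5.60 and 6.48 in SAT 19 and SAT 20 and the lowest value in BAT. Among SAT and BAT, miR-200b-3p was above the lowest value only in SAT 14, at 8.65. SAT 14 thus stood far above the other SAT libraries, and without it the difference of miR-205-5p was 2.72 and passed the test (adjusted p = 0.00923).

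Of 4 red cell miRNAs, miR-486-5p was lower in SAT and the erythroid miR-451a was not called, with 9.95, 10.38 and 9.93 in SAT and 9.23, 9.71 and 8.82 in BAT (0.83 ± 0.28, adjusted p = 0.0717). The pair thus had opposite signs. miR-486-3p, the other arm of miR-486, had 8.25, 9.27 and 12.34 in BAT and 6.34, 6.01 and 6.33 in SAT (-3.73 ± 1.13, adjusted p = 0.0539). Its highest value was in BAT 20, where the muscle marker share was highest, and the part of muscle RNA in it was not tested. Without BAT 12 or BAT 20, 2 red cell miRNAs were lower, and without BAT 15, 1 was higher. Of the 3 liver and gut miRNAs, miR-194-5p was lower in SAT (-3.36 ± 0.79, adjusted p = 0.0260), besides miR-122-5p, and of 5 neuronal miRNAs only both arms of miR-129 were called, whereas the neuronal markers miR-124-3p, miR-9-5p and miR-9-3p did not meet the detection rule. Without BAT 15, all 3 of the liver and gut miRNAs and 1 more neuronal miRNA were called, and without BAT 12, BAT 20, SAT 14 or SAT 19 only 1 of the liver and gut miRNAs was.

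Of 7 tested miRNAs of the Hox clusters, gene groups that set position along the body, 4 were higher in SAT and none lower (median 1.45). Beside both miR-196 members these were miR-10b-5p, at 16.90, 16.72 and 16.18 in SAT and 14.41, 15.02 and 13.74 in BAT, and miR-615-3p, at 10.23, 10.65 and 10.61 in SAT and 9.85, 9.76 and 9.31 in BAT (1.81-fold, adjusted p = 0.0277). miR-10a-5p had the same order of depots (1.45 ± 0.51) and an adjusted p of 0.0809. With BAT 15, SAT 19 or SAT 20 left out, 2 were called. Of 34 miRNAs from imprinted regions, 5 were higher and 2 lower (median 0.38), shares below those of all 343, and without the filter 3 were higher and 0 lower. With all 9 libraries in one fit, 7 were higher and 4 lower. The large positive values were those of miR-335 and miR-298. In the Dlk1-Dio3 region of chromosome 12, miR-300-3p (2.83-fold, adjusted p = 0.0465) and miR-381-3p (2.39-fold, adjusted p = 0.0141) were higher in SAT. miR-433-3p of the same region had 8.12, 8.70 and 8.52 in BAT and 6.16, 3.32 and 3.32 in SAT (-4.18 ± 0.88, adjusted p = 0.0189). The lower calls, of miR-433-3p and miR-673-5p, were both lost without BAT 12, BAT 15 or SAT 20, and 1 was without BAT 20 or SAT 19. The higher calls numbered 3 without BAT 12.

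Of the 8 tested miRNAs that the study links to the unfolded protein response (UPR), the stress response of the endoplasmic reticulum, 4 were higher in SAT and 1 lower. The list comes from the study's text and is not independent evidence of a direction. miR-17-5p had 6.85, 6.64 and 7.30 in SAT and 5.26, 4.92 and 3.32 in BAT (2.43 ± 0.58, adjusted p = 0.0265). miR-181d-5p was 2.80-fold higher (adjusted p = 0.0141), beside miR-143-3p and miR-34a-5p, and the lower one was miR-455-3p. miR-30c-2-3p (0.05 ± 0.21, adjusted p = 0.901), miR-125a-5p and miR-16-5p (0.95 ± 0.41, adjusted p = 0.131) were not called. Without any one of BAT 15 and the 3 SAT libraries, 2 were higher. Of the 12 miRNAs the study took to qPCR, among them its reference miR-191-5p, 6 were higher and 1 lower. miR-221-3p was 3.45-fold higher (adjusted p = 0.00398) and its cluster partner miR-222-3p was at 0.04 ± 0.25 (adjusted p = 0.932). In VAT against BAT, the study's qPCR reversed the sequencing direction for miR-221-3p, miR-30a-5p and miR-708-5p, all among the 6. The other miRNAs it compared kept their direction, and the correlation between the methods was not significant. The study reports no such check for SAT against BAT. The 11 miRNAs that its text names as most different were chosen on these libraries, and 5 were higher and 6 lower here.

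**Figure D3:**
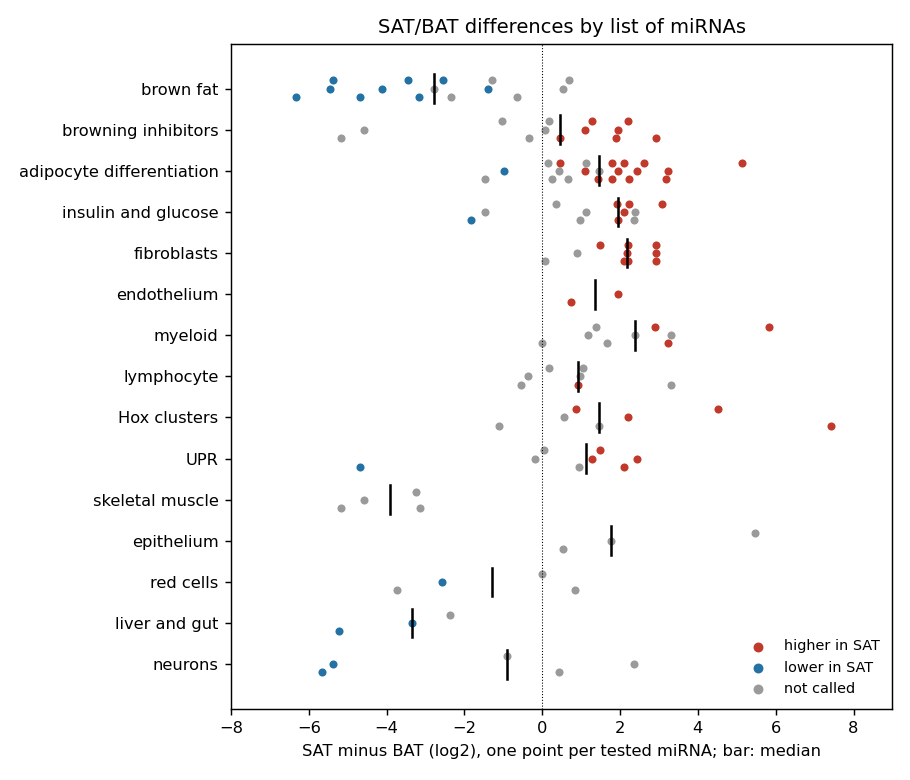
SAT minus BAT log2 difference of each tested miRNA (points) in 15 lists, with the median of a list as a bar. Red points were higher and blue points lower in SAT at an adjusted p under 0.05, and grey points were not called. The brown fat list has its 9 calls on the negative side, the fibroblast list its 8 calls on the positive side, and the 4 muscle points are far to the left and grey.

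Shared seeds showed how families divided. Families were formed from the 288 miRNAs with a RefSeq sequence. Tested miRNAs without one are not counted, among them miR-497-5p (called higher), miR-30d-5p (called lower) and miR-30b-5p (not called). Among the 12 seeds with at least 3 members counted, the let-7 seed GAGGUAG had the most, 9 members. Of these, 6 were higher in SAT and none lower. Their sequences differ outside the seed.
let-7a-5p: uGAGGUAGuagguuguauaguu
let-7c-5p: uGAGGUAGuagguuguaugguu
let-7e-5p: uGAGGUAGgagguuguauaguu
let-7b-5p: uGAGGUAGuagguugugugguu

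let-7e-5p had 14.02, 14.02 and 13.69 in SAT and 11.10, 10.80 and 10.93 in BAT, the largest difference of the family (7.80-fold, adjusted p = 0.000215). let-7b-5p had 15.56, 15.56 and 15.47 in SAT and 15.47, 14.88 and 15.70 in BAT (adjusted p = 0.572). Members of one seed family therefore ranged from 0.18 to 2.96 in log2 difference. Of members with a sequence, 3 of 5 were higher for the miR-15 seed AGCAGCA. For the miR-130 seed AGUGCAA and the miR-148 seed CAGUGCA these were 2 of 3 each. In the miR-30 seed GUAAACA, miR-30a-5p was higher (1.80 ± 0.21) and miR-30c-5p lower (-1.39 ± 0.09), both without overlap. In the miR-25 seed AUUGCAC, miR-25-3p was 2.45-fold higher (adjusted p = 0.0222) and miR-92b-3p 4.34-fold lower (adjusted p = 0.00617). The 3 members of CCCUGAG, miR-125a-5p, miR-125b-5p and miR-351-5p, lay between -0.33 and -0.05 and none was called.

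Genomic neighbours were grouped where precursors on one strand lay within 10 kb of the next. Only miRNAs with a RefSeq sequence were placed, so a group can be incomplete and its counts cover the placed miRNAs. Tested miR-532-5p and miR-23b-3p, both called higher, had no sequence and were not placed. The chromosome 16 pair of miR-193b and miR-365-1 (chr16:13449523-13453926) had 4 tested miRNAs, 3 of them lower in SAT. The miR-199a-2 and miR-214 pair (chr1:162217814-162223477) had 3 of 4 higher, the group of miR-188, miR-500, miR-501 and miR-532 (chrX:7237683-7248497) had 3 of 4 higher, and that of miR-27b and miR-24-1 (chr13:63300712-63301275) had all 3 higher. The miR-99a and let-7c-1 group (chr16:77598936-77599750) had 3 of 4 higher. In the let-7e and miR-125a group (chr17:17830352-17830879), let-7e-5p was the only one of 4 called. In the longest group, on chromosome 12 (chr12:109709060-109743795), 2 of 20 were higher and none lower. The miR-17 to miR-92-1 group had 3 of 7 higher and that of miR-25, miR-93 and miR-106b 2 of 6, with none lower. The group of miR-23a, miR-27a and miR-24-2 had 2 of 5 higher and 1 lower. No rule chose the groups given here. A mature miRNA made at several loci counts in each of its groups. This holds for miR-24-3p and let-7c-5p, whose calls cannot be assigned to a single locus.

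Both arms of a precursor were tested for 84 precursors. Both were called in 14, of which 9 were higher in SAT on either arm, 3 lower on either arm and 2 opposite. The 9 include miR-199a and miR-199b, whose 3p rows are identical. One arm alone was called in 36 and none in 34. The arms had the same sign in 50 precursors and opposite signs in 28, while in 6 an arm had a difference of 0. The median absolute gap between the arms' differences was 1.41 on the log2 scale, and 33 pairs were within 1.

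The widest gap was in miR-193a. Its 3p arm had 9.80 to 10.02 in SAT and 6.89, 6.04 and 5.76 in BAT (13.1-fold, adjusted p = 0.00113), while its 5p arm had 7.0, 7.27 and 6.63 in SAT and 8.31, 7.53 and 7.44 in BAT (-0.79 ± 0.31, adjusted p = 0.107). The 3p arm shares its seed ACUGGCC with miR-193b-3p, which was lower in SAT, so that miRNAs of one seed had opposite differences. miR-210 had a lower 5p arm (-2.85 ± 0.55, adjusted p = 0.0138) and a 3p arm of 1.46 ± 0.55 (adjusted p = 0.0929). miR-99b had a higher 3p arm (3.21 ± 0.70, adjusted p = 0.0202) beside its 5p arm at -0.88. In the other direction, miR-1843b had a lower 3p arm (5.99-fold, adjusted p = 0.00555), and miR-26b and let-7e had higher 5p arms beside 3p arms at -0.78 and -0.95.

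Arms called in opposite directions were found in miR-27a and let-7d. miR-27a-5p had 4.55, 5.60 and 4.64 in SAT and 6.69, 7.02 and 6.47 in BAT (3.48-fold lower, adjusted p = 0.0138), whereas miR-27a-3p was higher. let-7d-5p had 14.24, 14.41 and 14.52 in SAT and 13.74, 13.69 and 14.05 in BAT (1.48-fold, adjusted p = 0.0342), and let-7d-3p had 12.65, 13.09 and 12.98 in SAT and 14.11, 14.02 and 15.16 in BAT (2.87-fold lower, adjusted p = 0.0265). In each BAT library the 3p arm of let-7d thus was above its 5p arm, and in each SAT library it was below it. The difference between arms was not tested in itself. These calls were lost in 14 (let-7d-5p), 7 (let-7d-3p) and 11 (miR-27a-3p) of 21 other settings and in 2 of 20 for miR-27a-5p. The arms closest to each other were those of miR-199b (2.18 and 2.20), with those of miR-127 and miR-485 next, neither of which was called on either arm. The miR-199b-3p row is identical to that of miR-199a-3p, so its value cannot be assigned to the miR-199b precursor alone. miR-127-5p was at the lowest value in all 6 libraries.

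**Figure D4:**
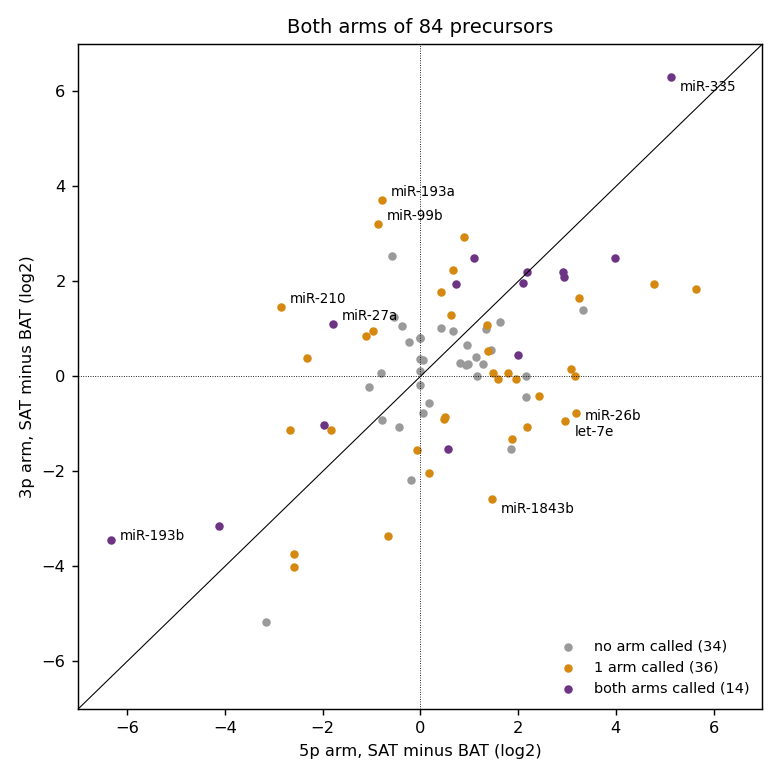
SAT minus BAT log2 difference of the 5p arm (x axis) and 3p arm (y axis) of 84 precursors, with the line of equal differences. Purple points have both arms called (14), orange points one (36) and grey points none (34). miR-335 lies at the upper right and miR-193b at the lower left, with arms of one sign, and miR-193a, miR-210 and miR-99b lie in the upper left, where the arms have opposite signs.

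The miRNAs on the 2 sides of the comparison differed in base composition, which the selection did not use. The median share of G and C in the mature sequence was 45.5% in the 66 sequenced miRNAs higher in SAT, 59.1% in the 46 lower in SAT and 50% in the 176 not called, and the median length was 22 nucleotides in each. Of 35 miRNAs with under 40% G and C, 10 were higher in SAT and 1, miR-542-3p, was lower. Of 55 with 60% or more, 5 were higher and 20 lower. These counts stand beside 66 higher and 46 lower among all 288 with a sequence. Over the 288 miRNAs with a sequence, which share the same 6 libraries and are not independent, Spearman's rho between G and C share and difference was -0.43. It was -0.49 over the 154 above the lowest value in all 6 libraries.

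A further contrast was the database number, which follows the order of discovery. Of 39 tested miRNAs with numbers of 1900 or more, 19 were lower in SAT and none higher (median -2.59), against 43 lower and 77 higher of the other 304 (median 0.43). miR-5126 had 12.65, 11.88 and 12.40 in BAT and 8.40, 8.29 and 8.74 in SAT (14.2-fold lower, adjusted p = 0.000423), and miR-5105 was 23.4-fold lower (adjusted p = 0.000870). Without the high-numbered miRNAs, rho between G and C share and difference was -0.36 over 263 miRNAs. Among 5p arms, 43 were higher and 19 lower of 156, and among 3p arms 34 and 27 of 156. Of all 343 tested miRNAs, 22.4% were higher and 18.1% lower. The 3p arms lie close to these shares, and a difference between the arms was not tested.

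**Figure D5:**
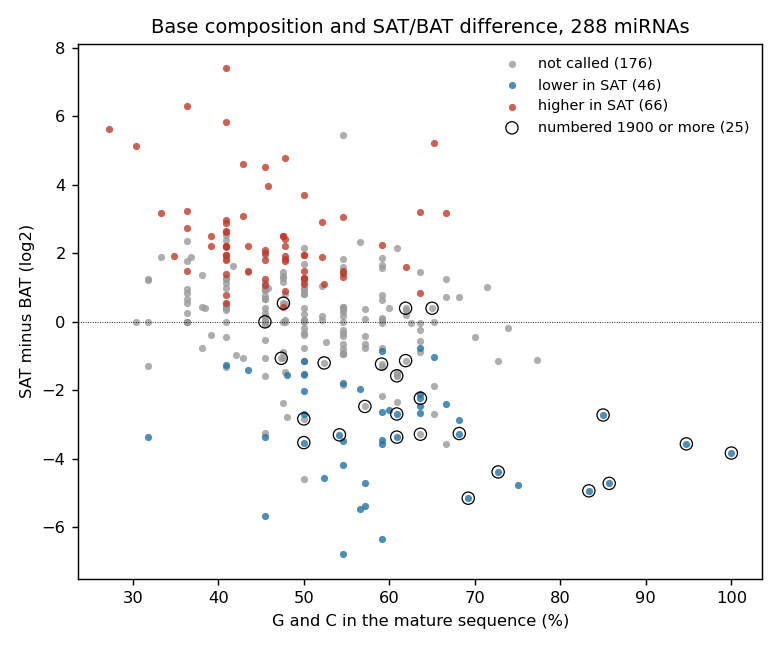
G and C share of the mature sequence (x axis, %) and SAT minus BAT log2 difference (y axis) of 288 miRNAs, coloured by call, with circles around the 25 that have numbers of 1900 or more and a sequence. Red points gather at the left and blue points at the right, and the 10 called miRNAs higher in SAT with under 40% include miR-335-3p, miR-340-5p and miR-21a-5p.

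VAT was used only to place SAT. In SAT/VAT, fitted in the same way and sharing the SAT libraries, 55 of 343 miRNAs differed (16%), and 23 of these also differed in SAT/BAT. The shared libraries make this count no independent sign of agreement. miR-223-3p had 10.38, 10.02 and 9.85 in VAT, above SAT. miR-335-5p had 5.96, 5.67 and 6.34 in VAT, below SAT and above BAT. These counts rest on single libraries and on the processing. The 55 became 0 without SAT 19, 12 without SAT 20, 0 with a replicate block by order, 2 relative to miR-191-5p and 4 without the filter, and the 23 became 0, 4, 0, 0 and 2.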

How the data were processed

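Small RNA libraries were made by the authors with an Illumina protocol from BAT, SAT and VAT of HFD mice. By the study's account, alignment to miRBase hairpins was followed by keeping only the mature part, a read with several alignments was shared among them, and a library-size scaling and an offset of 40 counts were applied by the authors. Their processing notes name the genome build mm10. Tool versions for these small RNA steps are not given in the sources used here. The deposited values are on a log2 scale with a lowest value of 3.32, the log2 of 10 and not of 40. At a given rank they are nearly equal in all libraries, which scaling by library size alone would not produce. The stated steps therefore do not fully describe the deposited values. These values were used unchanged, and the table holds no read counts, so depth is unknown.

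SAT and BAT (3 libraries each, as labelled) were compared with limma 3.58.1 in R 4.3.3 (lmFit, eBayes, two-sided) over 343 miRNAs, with Benjamini-Hochberg adjustment. The study names an unmoderated test, which was run as an alternative. Errors beside differences are SE from limma. Sequences came from RefSeq GRCm38.p6 and gene positions from GENCODE M21, read with pandas 2.3.3. On simulated data with 60 of 343 miRNAs changed by 2 (log2), the SAT/BAT fit recovered 64.4% in 20 draws, and 3.01% of its calls were false. The draws were independent and normal, without the lowest value or the shared rank values of the real libraries. They therefore do not give the share of false calls among the real ones.

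Named miRNAs were the 10 largest called differences in each direction, the 8 highest means per depot, those the study names, members of the lists, the seed families of 3 or more members, the arm pairs that differed most and least, and the 5 smallest differences among the 50 highest means. Others (miR-542-3p, miR-5126, miR-5105, miR-27a-5p, the let-7d arms and miR-25 family members) were named after their values were seen. Members and lists were chosen with earlier results of these data known.

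Alternatives were other offsets, filters, scalings, spreads, blocks and each library left out. Dropping the muscle list and a block over all 9 libraries were added after seeing the data. The number 20 alone is shared by SAT and BAT, and the numbers were not treated as pairs. Deviations of libraries of the same order correlated at 0.02, 0.09 and 0.11, the last for the libraries numbered 20. Other combinations lay between -0.15 and 0.05. With so few libraries these values cannot exclude pairing. SAT and VAT share the numbers 14 and 20, and SAT/VAT was also fitted without pairs.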

Additional observations from a re-analysis of the deposited data

Results flagged for a closer look

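For 16 miRNAs named above and called in SAT/BAT, of 23 such miRNAs in all, the difference from BAT was not of one size in the white depots, since SAT minus VAT, which equals the gap between the SAT/BAT and VAT/BAT differences, passed limma's test. Values are SAT minus VAT on the log2 scale, with adjusted p from 0.0144 to 0.0414. Above both other depots in SAT were miR-335-5p (2.46), miR-615-3p (1.30), let-7e-5p (1.09), let-7a-5p (1.04), miR-99b-3p (0.91) and miR-103-3p (0.51). Above BAT and below VAT were miR-146b-5p (-1.52), miR-221-3p (-1.18), miR-199a-3p and the identical miR-199b-3p (-0.95), miR-223-3p (-0.93) and miR-27b-3p (-0.91). Below BAT and above VAT were miR-5105 (2.30), let-7d-3p (0.78) and miR-320-3p (0.58). miR-378a-3p (-0.85) was below both. None of these SAT/VAT calls held without SAT 19 or with a replicate block by order, where 0 of 343 miRNAs were called in SAT/VAT. Relative to miR-191-5p 2 were called and without the filter 4.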

How the results depend on the processing

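The 139 calls became 74 without the filter, when all 1251 miRNAs were tested, and 112 to 142 with a library left out. In the other settings they ranged from 103 (no moderation on unlogged values) to 183. A block by library number could not be fitted on the 6 libraries, where 1 number is shared. Over all 9 libraries the replicate block gave 183 calls, against 182 in that fit without it, and a replicate block by order gave 120. Of the 139, 64 passed in all 21 other settings that held them, 75 were lost in at least 1 and 0 changed sign. Values relative to miR-191-5p gave 65 higher and 67 lower, against 77 and 62, and moved the median difference from 0.26 to 0.09. At the thresholds of the study, 171 calls became 145 to 173 with a library left out. The 23 miRNAs called in both SAT/BAT and SAT/VAT became 2 without the filter, 0 relative to miR-191-5p, 6 and 4 without moderation on log2 and unlogged values, 0 with the replicate block by order and 0 to 24 with a library left out. The 55 SAT/VAT calls became 4 without the filter, 2 relative to miR-191-5p, 30 over all 9 libraries (30 with the replicate block), 13 and 10 without moderation on log2 and unlogged values, 0 with the replicate block by order and 0 to 55 with a SAT or BAT library left out (VAT libraries were not left out).

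For the 116 tested miRNAs that the text names, 2121 of 2390 alternative values kept direction and side of the threshold, 183 lost and 67 gained significance. Of the 19 that changed sign, 18 had an adjusted p above the threshold. Relative to miR-191-5p these were miR-127-3p (-0.067), miR-214-3p (-0.11), miR-222-3p (-0.13) and miR-30c-2-3p (-0.12). The others came from leaving out a library, which gave differences of -0.056 to 0.35 for let-7b-5p, -0.35 to 0.065 for miR-125a-5p, -0.18 to 0.43 for miR-127-3p, -0.0081 to 0.30 for miR-191-5p, -0.13 to 0.21 for miR-222-3p, -0.12 to 0.21 for miR-30c-2-3p, -0.33 to 0.096 for miR-351-5p, -0.55 to 1.19 for miR-203-3p, -0.046 to 0.15 for miR-214-3p and -0.82 to 0.75 for miR-150-5p. The value past the threshold was that of miR-150-5p without SAT 20 (-0.82, adjusted p = 0.0441). Where no cause is named, the cause was not tested. Depth is unknown, so counting error could not be assessed.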

Other observations

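Some miRNAs below the detection rule were seen in a pair of libraries each. miR-1a-3p, a muscle miRNA, was at 7.38 in BAT 20 and 3.83 in VAT 20 and at the lowest value elsewhere. miR-429-3p, of the epithelial miR-200 family, was at 7.04 in SAT 14 and 6.63 in VAT 20 and at the lowest value in the other libraries. miR-211-5p, known from pigment cells, was at 6.33 in SAT 20 and 4.08 in VAT 17. These 3 were chosen after their values were seen.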
